A study of Saccharomyces cerevisiae with 24 samples.

Results

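The 85 features of type snoRNA or snRNA among the 12289 features of a count table of budding yeast, *Saccharomyces cerevisiae*, are described here across 24 libraries of poly(A)-selected RNA. Every feature of these 2 types in the table's own annotation was taken, with no choice by value, which gave 79 snoRNA and 6 snRNA features. By the reference annotation, 45 of the snoRNA features belong to box C/D RNAs, 29 to box H/ACA RNAs and 4 to U3. The U3 features are counted here with the box C/D RNAs, which makes 49. The remaining one is NME1, the RNA of RNase MRP. The 6 snRNA features are LSR1 (U2), snR19 (U1), snR14 (U4), snR6 (U6) and the long and short forms of U5, snR7-L and snR7-S, which share their reads. The 2 gene copies of U3 are each split into an exon feature (snR17a_exon, snR17b_exon) and an intron feature (snR17a_intron, snR17b_intron).

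The strains were dcp2-ideg, which carries an inducible degron for DCP2, lsm1-ideg, which carries one for LSM1, and wt. Cultures in rich YPD medium were sampled 60 min after 100 µM IAA (auxin) and 1 µM beta-oestradiol were added at 30 °C (T60) and without the addition (T0), with 4 libraries for each of the 6 groups. Dcp2 removes the cap from mRNA 5′ ends, and Lsm1 is the subunit that sets the decapping-promoting Lsm1-7 ring of the cytoplasm apart from its nuclear relative. The labels do not say whether the 4 libraries of a group came from separate cultures, so p-values measure the spread between these libraries, which may be technical. Cells are not counted in such bulk RNA, so that fewer cells and less RNA per cell cannot be told apart.

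snoRNAs are short nucleolar RNAs that act with proteins as guides for the chemical modification of ribosomal RNA. Box C/D RNAs guide 2′-O-methylation, box H/ACA RNAs guide pseudouridylation, and a few, among them U3, snR10 and snR128 (U14), take part in the cleavage of the ribosomal RNA precursor. In yeast most are made from their own promoters or cut from a shared precursor, some are released from the introns of protein-coding genes after splicing, and the mature RNAs do not carry a stable poly(A) tail. The spliceosomal snRNAs remove introns from pre-mRNA, and U6 is bound by the nuclear Lsm2-8 ring, which shares subunits with Lsm1-7. The counts therefore come from polyadenylated forms, from precursors within polyadenylated transcripts or from RNA carried over the selection, and they are not levels of the mature RNAs.

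By position, 8 members lie inside introns of protein-coding genes, 17 in polycistronic clusters and 58 in transcription units of their own, besides the 2 U3 introns. The 8 intronic snoRNAs are printed because they hold 5 of the 9 members called in dcp2-ideg beyond the wt change. Their sequences are from the RefSeq R64 (sacCer3) genome at the table's coordinates, 5′ to 3′, and capitals mark the C box (TGATGA within the first 20 bases) and the D box (CTGA within the last 20 bases) of the C/D RNAs, or ACA within the last 10 bases of the H/ACA RNAs.
snR44 in RPS22B, chrXII:856710-856920, plus strand: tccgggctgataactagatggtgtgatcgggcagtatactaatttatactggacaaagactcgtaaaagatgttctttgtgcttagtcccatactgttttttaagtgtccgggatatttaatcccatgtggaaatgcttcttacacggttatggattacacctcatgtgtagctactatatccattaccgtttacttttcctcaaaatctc
snR191 in NOG2, chrXIV:721938-722211, minus strand: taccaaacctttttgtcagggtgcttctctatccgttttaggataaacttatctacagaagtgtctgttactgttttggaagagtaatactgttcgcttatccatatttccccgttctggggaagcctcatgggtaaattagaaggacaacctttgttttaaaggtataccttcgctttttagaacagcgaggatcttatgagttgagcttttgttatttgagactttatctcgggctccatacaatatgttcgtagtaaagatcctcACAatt
snR38 in TEF4, chrXI:283185-283279, plus strand: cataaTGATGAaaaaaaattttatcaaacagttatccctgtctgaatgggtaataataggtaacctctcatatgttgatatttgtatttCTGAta
snR18 in EFB1, chrI:142367-142468, plus strand: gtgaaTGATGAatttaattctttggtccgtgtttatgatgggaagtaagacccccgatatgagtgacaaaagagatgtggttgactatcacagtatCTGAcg
snR54 in IMD4, chrXIII:163535-163620, minus strand: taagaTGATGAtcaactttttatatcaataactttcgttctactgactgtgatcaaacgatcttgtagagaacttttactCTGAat
snR24 in ASC1, chrXIII:499984-500072, minus strand: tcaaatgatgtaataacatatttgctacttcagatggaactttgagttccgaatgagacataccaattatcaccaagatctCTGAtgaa
snR59 in RPL7B, chrXVI:173827-173904, plus strand: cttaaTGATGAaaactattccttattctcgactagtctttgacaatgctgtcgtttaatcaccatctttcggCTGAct
snR39 in RPL7A, chrVII:365163-365251, minus strand: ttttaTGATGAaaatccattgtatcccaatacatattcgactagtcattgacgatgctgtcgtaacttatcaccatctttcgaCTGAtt
Of the 45 C/D members other than U3, 36 held TGATGA and 43 held CTGA in these windows of their own strand, against 1 and 2 of the 29 H/ACA members, while ACA stood in the last 10 bases of 18 of 29 H/ACA and 5 of 45 C/D members. snR44 has no ACA and snR24 no exact TGATGA in its window. snR39 and snR59, which lie in the paralogous genes RPL7A and RPL7B and guide the same methylation, are 74.4% identical.

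The U3 introns are printed because the copy b intron had the largest fall of all members. Capitals mark the first 6 bases, the branch-point letters ACTAAC and the last 3 bases.
U3 copy b intron, chrXVI:281374-281503, minus strand: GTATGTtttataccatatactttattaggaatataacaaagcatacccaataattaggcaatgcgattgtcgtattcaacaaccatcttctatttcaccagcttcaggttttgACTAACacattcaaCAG
U3 copy a intron, chrXV:780121-780277, plus strand: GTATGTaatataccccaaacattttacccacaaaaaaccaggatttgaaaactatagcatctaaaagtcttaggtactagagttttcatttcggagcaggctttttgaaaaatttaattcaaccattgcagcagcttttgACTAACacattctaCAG
The 2 introns are 60.5% identical and the 2 U3 exon features 91.9% identical over the alignment, so that reads of the exon features are the less certain to be placed on the right copy. No member had a copy elsewhere in the genome with at least 95% identity over at least 50% of its length.

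The only 2 members called higher in dcp2-ideg T60 than in dcp2-ideg T0 libraries are H/ACA RNAs with transcription units of their own, with capitals as above.
snR46, chrVII:545370-545566, plus strand: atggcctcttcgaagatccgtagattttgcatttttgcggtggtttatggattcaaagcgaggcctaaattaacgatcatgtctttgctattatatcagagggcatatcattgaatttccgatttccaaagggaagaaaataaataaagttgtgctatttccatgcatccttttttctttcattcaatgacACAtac
snR80, chrV:52150-52320, minus strand: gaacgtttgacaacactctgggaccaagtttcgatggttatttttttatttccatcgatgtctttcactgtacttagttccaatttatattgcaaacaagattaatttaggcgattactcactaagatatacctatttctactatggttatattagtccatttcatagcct

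Libraries held 41835174 to 83929951 counts in all, of which 17988 to 55605 fell in the members. This was 0.0327% to 0.0903% of a library (median 0.0507%). Of the 85 members, 69 had a median of 100 or more counts per library and 3 had a median under 10. The members took 0.0565%, 0.0703%, 0.0656% and 0.0903% of the dcp2-ideg T60 libraries, against 0.0411%, 0.0456%, 0.0534% and 0.0855% of the dcp2-ideg T0 libraries. Means were 0.0514% ± 0.00935 in lsm1-ideg T60 and 0.0432% ± 0.00860 in lsm1-ideg T0, and 0.0518% ± 0.00999 in wt T60 and 0.0471% ± 0.0102 in wt T0 (SD, n = 4 each). In both dcp2-ideg groups the highest share was in replicate 4. The 95% Wilson interval of a share was narrow, 0.0558% to 0.0571% for dcp2-ideg T60 replicate 1, and covers counting error only. dcp2-ideg T0 replicate 4 also stood apart over all features, with a median deviation of 0.52 (log2) from its group, against 0.14 to 0.35 in the other libraries. The transcripts of the degron-tagged genes averaged 68.1 ± 13.2 CPM in dcp2-ideg T60, against 124 ± 29.3 in dcp2-ideg T0 for DCP2, and 87.8 ± 3.77 CPM in lsm1-ideg T60, against 102 ± 2.03 in lsm1-ideg T0 for LSM1 (SD, n = 4 each). In wt, DCP2 averaged 145 ± 16.4 CPM at T60 and 144 ± 13.3 CPM at T0 (SD, n = 4 each). LSM1 averaged 161 ± 8.63 CPM in wt T60 and 154 ± 6.25 CPM in wt T0 (SD, n = 4 each), so it was lower in lsm1-ideg before treatment too. These are transcript levels and do not check the depletion of the tagged protein.

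**Figure D1:**
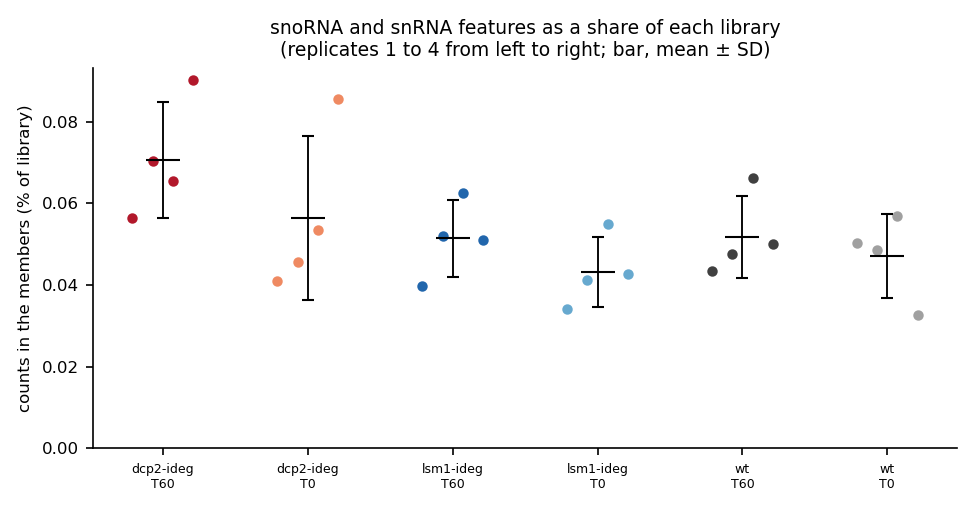
Share of each library's counts that fell in the 85 members, in percent, by group; points are replicates 1 to 4 from left to right and bars show mean ± SD (n = 4). Replicate 4 is the highest point in both dcp2-ideg groups, with 0.0903% at T60 and 0.0855% at T0.

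CPM values are counts relative to library size, with TMM factors applied. Over all libraries the members together held 528 CPM, and the 5 with the highest mean count per base held 24.7% of that. These were snR44, snR18 and snR54 inside introns, with 179, 177 and 161 CPM per kilobase, then snR33, an H/ACA guide with its own unit, with 98.8, and intronic snR24 with 97.6. The members' median was 27.3 CPM per kilobase, against 32.4 for gene features and 20.2 for introns. The median was 35.7 for the 28 members of up to 100 bases, 24.6 for the next 33, of up to 200 bases, and 25 for the 24 longer ones, so short members were not lower per base. The 5 members that varied most over the 24 libraries were snR17b_intron, snR46, snR8, snR17b_exon and snR10. snR8 is an H/ACA guide that ranged from 1.46 to 9.78 CPM, and snR10, an H/ACA RNA required for pre-rRNA cleavage, ranged from 2.94 to 22.3 CPM. The highest snR8 and snR10 values were both in dcp2-ideg T0 replicate 4.

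Of the 8 snoRNAs inside introns, 5 were called lower after 60 min in the dcp2-ideg strain relative to wt, and 1 with libraries scaled by total counts. A call here is an adjusted p under 0.05 by edgeR's quasi-likelihood test over 11776 features, of which 84 were members. In the change of dcp2-ideg (T60 against T0) beyond that of wt, 9 of the 84 members fell and 0 rose. Over all features tested, 15.9% were called lower and 18.5% higher (34.4% either way), so the members were not called more often than other features. The median log2 change of the 8 members inside introns was -1.03. Of the 76 others tested 4 fell (median -0.31). The median was -0.38 over all 84 members and 0.07 over all features. By class, 7 of 49 C/D members fell (median -0.57), 2 of 29 H/ACA members (median -0.09) and 0 of 5 snRNA features tested (median -0.40). By position outside introns, 1 of 17 polycistronic members fell (median -0.46), as did 2 of 24 C/D members (median -0.45) and 0 of 27 H/ACA members (median -0.03) with their own units.

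How far the members moved as a class depended on the scaling. TMM factors ran between 1.29 and 1.49 for dcp2-ideg T60 and were at most 1.01 elsewhere. With libraries scaled by total counts instead, the median of all features moved to 0.57 and that of the members to 0.14, and 5 members were called higher and 2 lower (snR44 and snR17b_intron). Measured from the median of all features, the intronic members stood at -1.10 with TMM factors, -1.09 with total counts and -0.95 without dcp2-ideg T0 replicate 4. The other members stood at -0.38, -0.37 and -0.13 in the same order. Total counts in place of TMM factors move all features by about the same amount, so the values under these 2 scalings had to be alike. They do not check the fall against the scaling. Without that library 9 members were called lower and 2 higher, 5 of the lower ones inside introns, and the median was -0.32 for C/D members and 0.23 for H/ACA members. Without dcp2-ideg T0 replicate 1, 16 members were called lower and 0 higher.

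**Figure D2:**
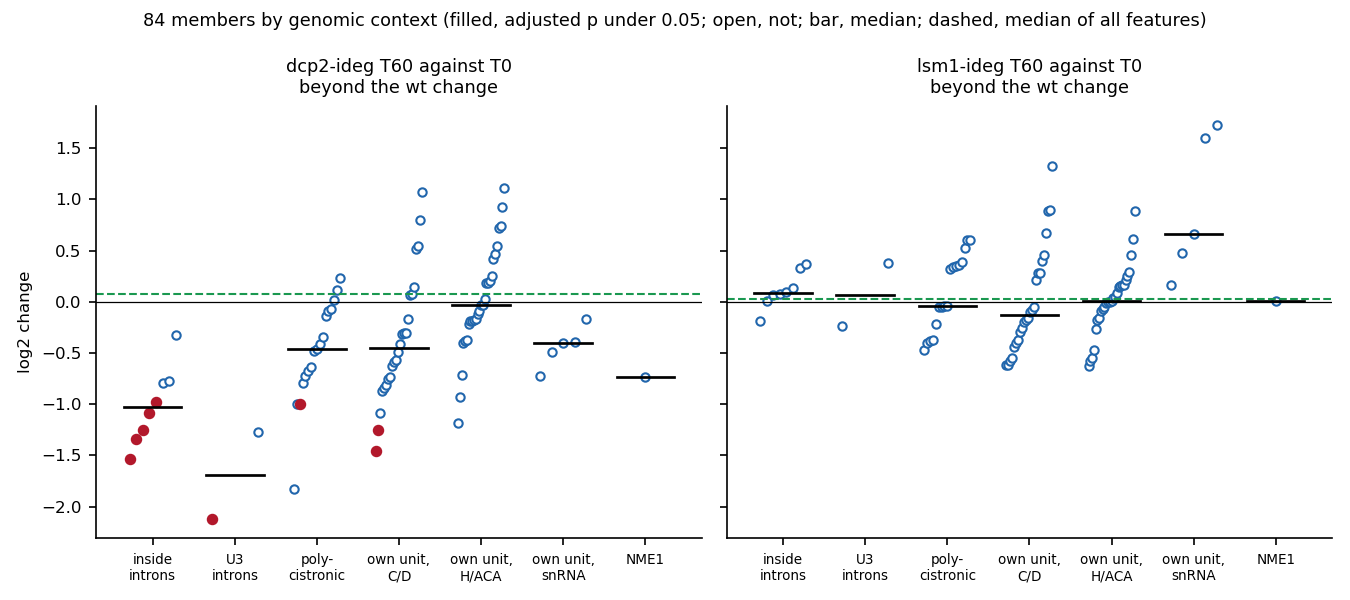
Log2 change from T0 to T60 beyond the wt change for the 84 members tested, in dcp2-ideg (left) and lsm1-ideg (right), by genomic position and class; filled points passed an adjusted p of 0.05, bars are medians and the dashed line is the median of all features. In dcp2-ideg the median of the 8 intronic members is -1.03 and in lsm1-ideg it is 0.09.

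snR44 lies in an intron of RPS22B, a ribosomal protein gene of the small subunit, and guides pseudouridylation of both ribosomal RNAs. It had 14.5, 17.7, 15.5 and 17.6 CPM in the dcp2-ideg T60 libraries, against 37.9, 33.9, 41.9 and 53.5 CPM in the dcp2-ideg T0 libraries. Every T60 library was below every T0 library. wt libraries held 35.3 to 54.6 CPM at T60 and 33.6 to 37.7 CPM at T0. The log2 change beyond wt was -1.54 ± 0.19 (SE, adjusted p = 1.44e-06), and snR44 and snR17b_intron kept their call in all 32 alternatives run.

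snR191, an H/ACA guide in the intron of NOG2, a gene for a GTPase of large-subunit assembly, had 3.04, 2.76, 4.80 and 3.22 CPM in dcp2-ideg T60, against 4.68, 5.91, 6.04 and 10.7 CPM in dcp2-ideg T0. One T60 library lay above the lowest T0 library, so the groups overlapped. Beyond wt the change was -1.34 ± 0.38 (SE, adjusted p = 0.00761). snR38, a C/D guide in the intron of TEF4, a translation elongation factor gene, had 1.49, 2.00, 3.38 and 1.64 CPM in dcp2-ideg T60, against 4.48, 6.53, 7.66 and 4.05 CPM in dcp2-ideg T0. wt libraries held 4.52 to 9.98 CPM of snR191 at T60 and 3.56 to 5.90 CPM at T0, and 4.03 to 6.69 CPM of snR38 at T60 and 4.78 to 7.25 CPM at T0. The dcp2-ideg groups did not overlap for snR38, and the change was -1.26 ± 0.38 (SE, adjusted p = 0.0122). Both calls were lost under total count scaling.

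snR18 (U18), in the intron of the elongation factor gene EFB1, had 6.37, 12.2, 9.62 and 11.4 CPM in dcp2-ideg T60, against 14, 19.2, 22.5 and 24.7 CPM in dcp2-ideg T0. snR54, a methylation guide in the intron of IMD4, which encodes an IMP dehydrogenase, had 6.54, 8.91, 11 and 10.9 CPM in dcp2-ideg T60, against 11.3, 12.9, 16.2 and 27.7 CPM in dcp2-ideg T0. In neither did the dcp2-ideg groups overlap, although the highest T60 and lowest T0 values of snR54 lay close together. wt libraries held 16 to 26.4 CPM of snR18 at T60 and 18.5 to 22.2 CPM at T0, and 12.5 to 17.4 CPM of snR54 at T60 and 12.1 to 14.5 CPM at T0. The changes beyond wt were -1.09 ± 0.34 for snR18 (SE, adjusted p = 0.0154) and -0.98 ± 0.31 for snR54 (SE, adjusted p = 0.0162). Both were lost with total count scaling and with TMM factors taken from gene features alone.

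The other 3 intronic snoRNAs did not pass the test. snR24 (U24), in the intron of ASC1, which encodes a ribosome-associated protein, had 5.44, 9.04, 6.96 and 7.02 CPM in dcp2-ideg T60, against 6.83, 8.86, 11.4 and 14.9 CPM in dcp2-ideg T0, and these overlapped. Its change beyond wt was -0.78 ± 0.35 (SE, adjusted p = 0.0889). snR59 had 1.37, 2.28, 2.51 and 1.54 CPM in dcp2-ideg T60, against 2.43, 2.74, 3.96 and 3.89 CPM in dcp2-ideg T0, and a change of -0.79 ± 0.40 (SE, adjusted p = 0.131). snR39 was the least changed, with 5.17, 6.83, 6.63 and 6.94 CPM in dcp2-ideg T60, against 7.00, 7.32, 9.80 and 8.36 CPM in dcp2-ideg T0, and a change of -0.32 ± 0.28 (SE, adjusted p = 0.391). The snR39 groups came close without overlapping, and those of snR59 overlapped. Together the 8 held 43.9 to 61.7 CPM in the dcp2-ideg T60 libraries, against 88.6 to 148 CPM in the dcp2-ideg T0 libraries. They held 98.4 to 135 CPM in lsm1-ideg T60, against 87.0 to 106 CPM in lsm1-ideg T0, and 88.9 to 140 CPM in wt T60, against 90.4 to 106 CPM in wt T0. On this TMM scale every dcp2-ideg T60 library was thus below all 20 others. Without the TMM factors, which lower the dcp2-ideg T60 values, these libraries overlapped with others.

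**Figure D3:**
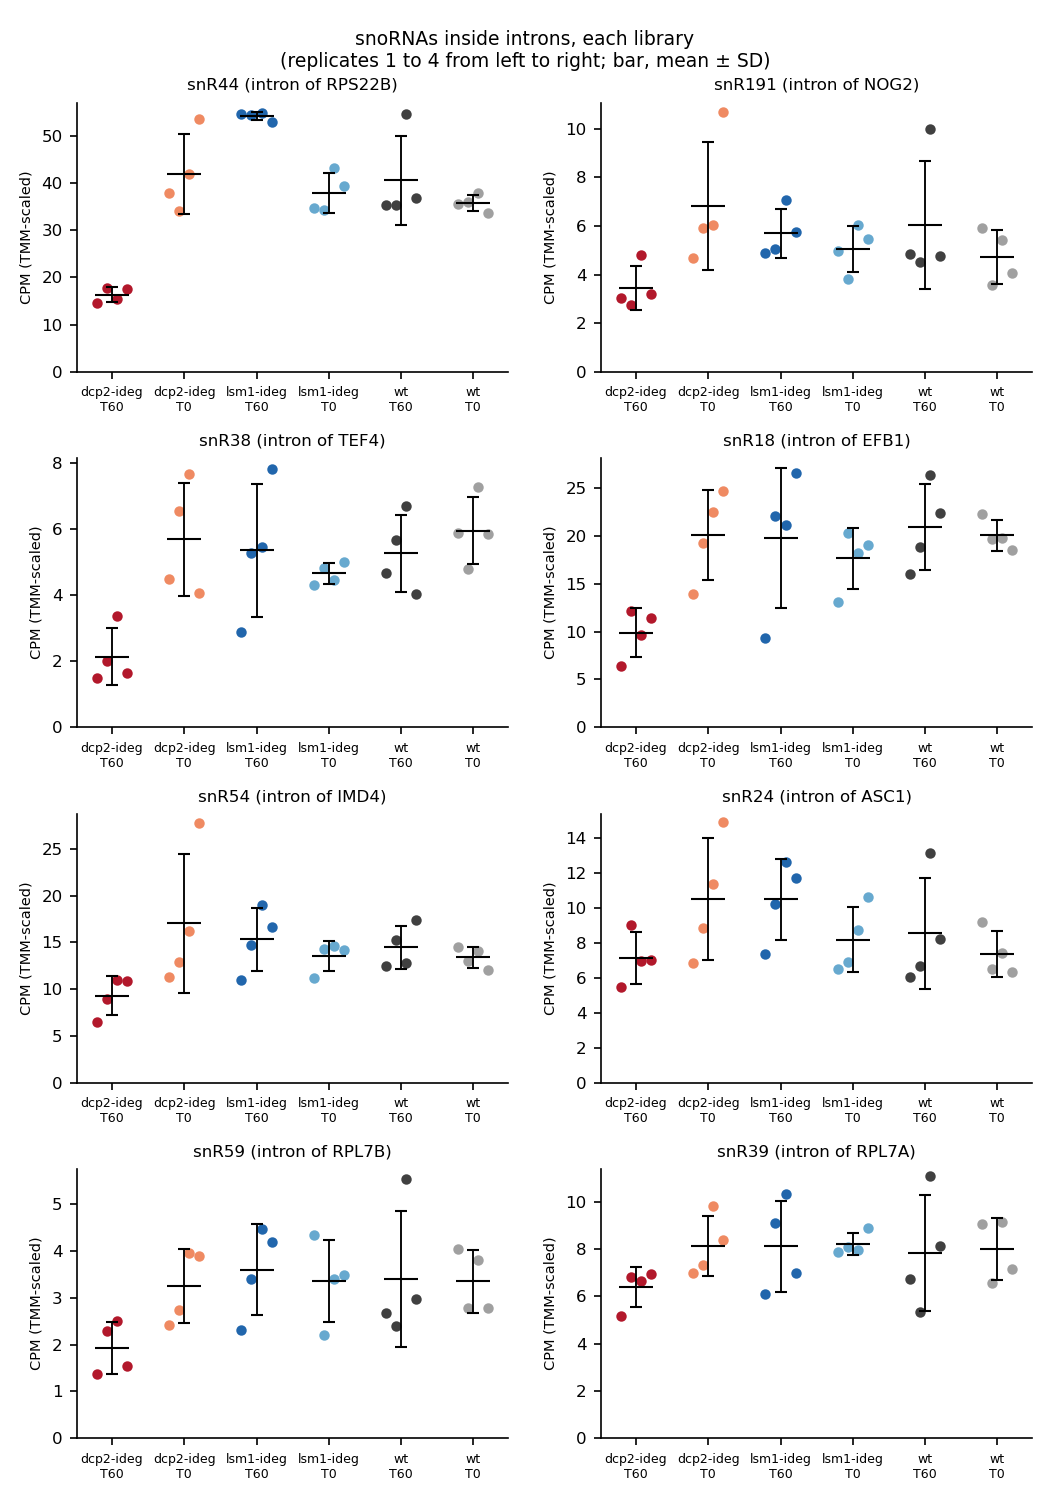
Level of each of the 8 intronic snoRNAs in every library, in TMM-scaled CPM, with the host gene in the panel title; points are replicates 1 to 4 from left to right and bars show mean ± SD (n = 4). For snR44 the dcp2-ideg T60 libraries sit between 14.5 and 17.7 CPM, against 33.9 to 53.5 CPM at T0, and the lsm1-ideg T60 libraries between 52.8 and 54.7 CPM.

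In the same comparison the exons of all 8 hosts were called lower, with log2 changes of -1.66 (RPS22B) to -0.44 (IMD4) and a median of -1.19. The whole intron was called lower in 6 of 8. Among all gene features 27.4% were called lower (median -0.18), and among all introns 11.9%. snR44 (-1.54), its intron (-1.54 ± 0.21, SE) and the RPS22B exons (-1.66 ± 0.26, SE) moved by like amounts. In IMD4 the values of snR54 and the intron were further from 0 than that of the exons, with -0.98 and -1.01, against -0.44 ± 0.16 (SE) for the exons. NOG2 showed the same order, with -1.34 and -1.15, against -0.70 ± 0.15 (SE). In RPL7A the exons fell by 1.29 ± 0.11 (SE), while snR39 and its intron were at -0.32 and -0.49 and did not pass. With total count scaling snR39 was at 0.19. In RPL7B the exons fell by 1.09 ± 0.12 (SE), while snR59 was at -0.79 and its intron at 0.31. The differences between a snoRNA and its host were not tested. RPL7A and RPL7B are near-identical paralogs, each with a pair of introns that the table joins in 1 feature, so their split is uncertain, and 1 RPL7A exon piece in the table covers snR39. With total count scaling 5 of 8 host exon features were called lower, and 7 of 8 without dcp2-ideg T0 replicate 4.

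Reads of an intronic snoRNA are counted in the intron too, so the 2 values are not independent. The snoRNA made up 12% (snR59) to 73.2% (snR191) of the intron's counts, as medians over 24 libraries. Per base the snoRNA held more counts than the rest of its intron in 7 of the 8. These medians over the libraries ran from 1.29 times (snR59) to 3.54 times (snR39). For snR59 the libraries ranged from 0.460 to 2.25 times. The RPL7A and RPL7B intron features each join a pair of introns, so the values of snR39 and snR59 include an intron without the snoRNA. In ASC1 the median was 0.756 times (0.505 to 1.59), so that by the median snR24 was covered no more than the intron around it. The 252 tested introns that hold no snoRNA had a median log2 change of -0.23, with 25 called lower and 13 higher.

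**Figure D4:**
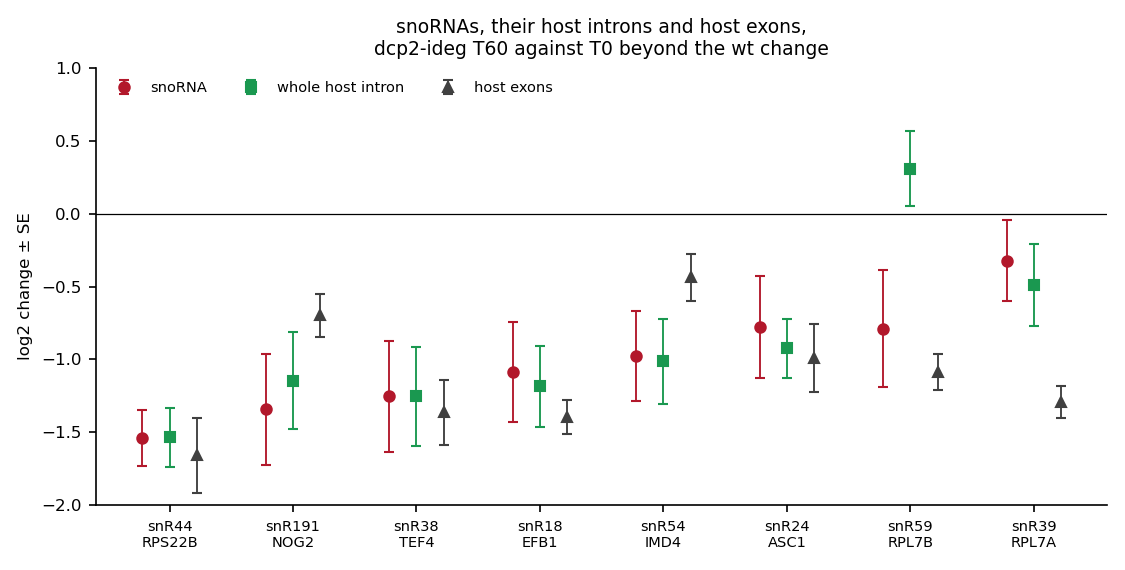
Log2 change (± SE) in dcp2-ideg T60 against T0 beyond the wt change for each intronic snoRNA, its whole host intron and its host exons. snR44 and the exons of RPS22B lie at -1.54 and -1.66, and the snR59 host intron is the only positive value, at 0.31.

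U3, the C/D RNA of the small-subunit processome, fell in the intron and the exons of its copy b. The copy b intron had 0.470, 1.04, 0.701 and 1.22 CPM in dcp2-ideg T60, against 2.85, 3.57, 3.92 and 6.83 CPM in dcp2-ideg T0, and the groups did not overlap. wt libraries held 2.21 to 3.93 CPM at T60 and 2.34 to 5.34 CPM at T0. Its log2 change beyond wt was -2.12 ± 0.50 (SE, adjusted p = 0.00174). The copy b exons had 4.30, 6.28, 4.93 and 6.27 CPM in dcp2-ideg T60, against 10.4, 12.1, 12.5 and 28 CPM in dcp2-ideg T0, again without overlap, and a change of -1.46 ± 0.42 (SE, adjusted p = 0.00884). That call was lost under total count scaling. Reads of an intron feature come from unspliced precursor or from excised intron, which these counts do not separate.

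Copy a, which overlaps the dubious gene YOR235W on its strand, gave smaller values that did not pass. Its intron had 1.02, 1.35, 2.20 and 1.55 CPM in dcp2-ideg T60, against 1.82, 3.08, 4.80 and 5.83 CPM in dcp2-ideg T0, and its change beyond wt was -1.27 ± 0.55 (SE, adjusted p = 0.0775). Its exons had 4.52, 6.27, 8.55 and 6.97 CPM in dcp2-ideg T60, against 6.21, 8.58, 11 and 18.8 CPM in dcp2-ideg T0, with a change of -0.57 ± 0.46 (SE, adjusted p = 0.353). Both features overlapped between the groups. Whether the copies differ from each other in their change was not tested.

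The remaining 2 falls were in C/D guides outside introns. snR55, in a polycistronic cluster, had 2.83, 3.23, 2.57 and 2.56 CPM in dcp2-ideg T60, against 4.23, 4.43, 5.24 and 4.95 CPM in dcp2-ideg T0, with no overlap, and changed by -0.99 ± 0.33 beyond wt (SE, adjusted p = 0.0218). snR79, with its own unit, had 1.42, 2.71, 1.72 and 1.58 CPM in dcp2-ideg T60, against 2.76, 2.63, 3.45 and 3.49 CPM in dcp2-ideg T0, and changed by -1.25 ± 0.46 (SE, adjusted p = 0.0375). Its groups overlapped. Over the 32 alternatives the adjusted p reached 0.269 for snR55, which lost its call in 4, and 0.217 for snR79, which lost it in 10. Both lost it under the 2 other scalings and without wt T60 replicate 3 or wt T0 replicate 4. snR79 also lost it without wt T0 replicate 1, dcp2-ideg T0 replicate 3 or any of dcp2-ideg T60 replicates 1, 3 and 4.

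Within the dcp2-ideg strain alone, T60 against T0, 18 members were called lower and 2 higher, where 23.9% of all features were called lower and 27.9% higher (51.8% either way). snR46, an H/ACA guide for the large-subunit RNA, had 13.5, 18.4, 15.1 and 20.1 CPM at T60, against 7.26, 4.26, 4.51 and 11.5 CPM at T0, and rose by 1.29 ± 0.29 (log2, SE, adjusted p = 0.000655). snR80, an H/ACA guide for both ribosomal RNAs, had 1.35, 1.90, 2.27 and 1.96 CPM at T60, against 0.441, 0.883, 1.13 and 0.397 CPM at T0, and rose by 1.39 ± 0.41 (log2, SE, adjusted p = 0.00580). These were the only members whose T60 libraries all lay above their T0 libraries, against 11 whose T60 libraries all lay below, where 24.9% and 16.7% of all features did so. Both kept this call in all 32 alternatives, many of which left out a library of a group not compared here. Beyond the wt change neither passed, with 0.93 ± 0.41 for snR46 (SE, adjusted p = 0.0822) and 1.11 ± 0.58 for snR80 (SE, adjusted p = 0.143). Without dcp2-ideg T0 replicate 4 the count was 9 lower and 11 higher, and with total count scaling 4 lower and 18 higher.

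Of the 18 that fell within dcp2-ideg, 6 were inside introns and 3 were U3 features, and the largest others were snR85 (-1.11 ± 0.45, SE, adjusted p = 0.0424), snR190 (-1.05 ± 0.34, SE, adjusted p = 0.0128) and snR81 (-0.95 ± 0.38, SE, adjusted p = 0.0418). All 3 lost the call without dcp2-ideg T0 replicate 4 and under the 2 other scalings. snR85 and snR81 are H/ACA RNAs, and snR190 is a C/D RNA of a cluster. snR81 overlaps cryptic transcripts on the opposite strand, so its value is uncertain.

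**Figure D5:**
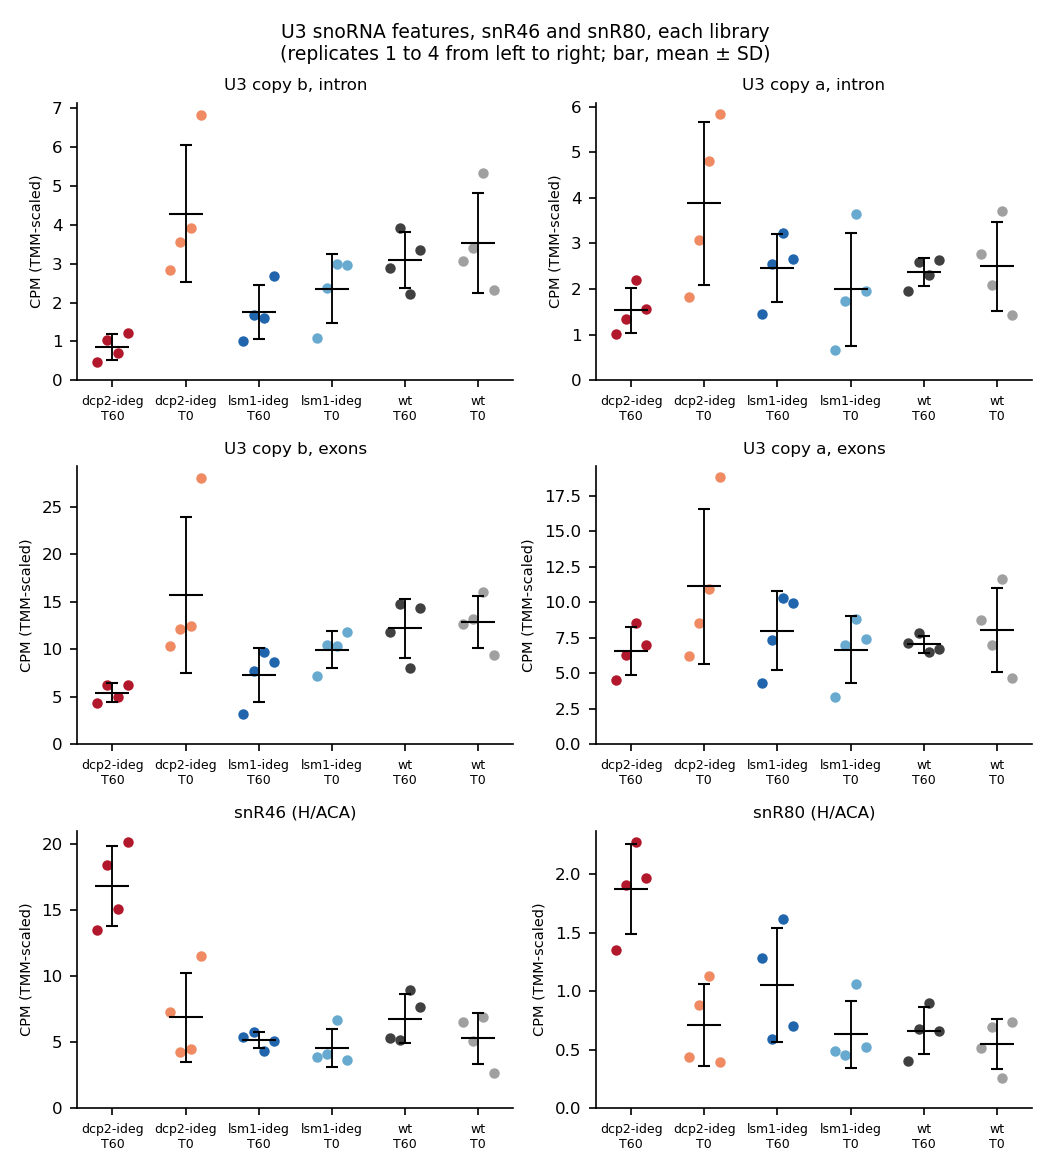
Levels of the intron and exon features of the 2 U3 copies and of snR46 and snR80 in every library, in TMM-scaled CPM; points are replicates 1 to 4 from left to right and bars show mean ± SD (n = 4). The copy b intron sits between 0.470 and 1.22 CPM in dcp2-ideg T60, against 2.85 to 6.83 CPM in dcp2-ideg T0, while snR46 sits at 13.5 to 20.1 CPM, against 4.26 to 11.5 CPM.

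The spliceosomal snRNAs did not pass the test in dcp2-ideg beyond wt. LSR1 (U2), which pairs with the branch point, had 9.55, 10.4, 9.62 and 13.3 CPM in dcp2-ideg T60, against 11, 14.9, 14.2 and 26.2 CPM in dcp2-ideg T0, overlapping, with a change beyond wt of -0.49 ± 0.33 (SE, adjusted p = 0.262). snR19 (U1), which pairs with the 5′ splice site, had 4.42, 5.74, 7.27 and 9.81 CPM in dcp2-ideg T60, against 5.13, 7.62, 7.52 and 20.6 CPM in dcp2-ideg T0, with a change of -0.40 ± 0.47 (SE, adjusted p = 0.543). snR14 (U4), the partner of U6, had 2.18, 1.34, 1.14 and 1.63 CPM in dcp2-ideg T60, against 0.441, 0.582, 1.09 and 2.59 CPM in dcp2-ideg T0, with a change of -0.17 ± 0.66 (SE, adjusted p = 0.875). All 3 overlapped between the groups. Their sign was not stable: without dcp2-ideg T0 replicate 4 snR14 was at 0.54 and snR19 at 0.17, and with total count scaling snR14 was at 0.34, snR19 at 0.13 and LSR1 at 0.0085. U5 had medians of 8 counts (snR7-L) and 6 counts (snR7-S) per library and adjusted p of 0.732 and 0.871, so no difference was detectable at this depth. Without dcp2-ideg T0 replicate 4 their changes were 0.20 (snR7-L) and 0.50 (snR7-S), against -0.73 and -0.39 with all libraries. snR6 (U6) had 0 to 7 counts per library and was not tested. U6 is transcribed by RNA polymerase III and ends in uridines. The U2 feature overlaps YBR230W-A and the U4 feature an unstable transcript on the opposite strand, and the strand setting of the counting was not given in the sources used here.

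Genes for the snoRNP machinery were compared from lists of known factors. The 4 core C/D proteins all fell in dcp2-ideg beyond wt, with log2 changes of -1.25 ± 0.17 for NOP56, -1.10 ± 0.19 for SNU13, -1.05 ± 0.18 for NOP1, the methyltransferase, and -0.87 ± 0.16 for NOP58 (SE). The 4 core H/ACA proteins fell too, with -1.34 ± 0.21 for NHP2, -1.22 ± 0.27 for GAR1, -1.04 ± 0.35 for NOP10 and -0.95 ± 0.12 for CBF5, the pseudouridine synthase (SE). The medians of -1.07 and -1.13 compare with -0.18 over gene features, of which 1575 of 5751 were called lower. With total count scaling the medians were -0.59 and -0.61, and 4 of 4 and 3 of 4 were called lower. Of 9 assembly factors 3 fell, namely SHQ1 and the ATPases RVB1 and RVB2, and 0 rose. With total count scaling 0 of these 9 fell and 2 rose.

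Of 17 genes for snoRNA transcription termination, 3′ trimming and polyadenylation 7 fell and 0 rose, where 27.4% of gene features were called lower and 13.1% higher. They were MTR4 (-1.06 ± 0.12), LHP1 (-0.97 ± 0.14), RNT1 (-0.81 ± 0.20), PAP2 (-0.69 ± 0.15), LRP1 (-0.58 ± 0.22), RRP6 (-0.57 ± 0.17) and TRF5 (-0.56 ± 0.15, all SE). MTR4 is the helicase of the nuclear exosome and of TRAMP, PAP2 and TRF5 the TRAMP poly(A) polymerases, RRP6 the nuclear exosome nuclease with its partner LRP1, RNT1 the RNase III that cuts snoRNA precursors, and LHP1 the La protein that binds RNA ends in uridines. With total count scaling 2 of the 17 fell and 4 rose. In the Sm and Lsm list 4 of 15 fell, namely LSM1, LSM2, LSM4 and LSM7, a share near that of gene features, and 0 did with total count scaling.

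Among other stable RNAs that carry no poly(A) tail or only a part of whose molecules do, TLC1, the telomerase RNA, fell by 0.89 ± 0.19 (log2, SE, adjusted p = 0.000899), a call lost with total count scaling. SCR1 (-0.29 ± 0.47, SE, adjusted p = 0.675), RPR1, the RNase P RNA (-0.38 ± 0.49, SE, adjusted p = 0.584), and the member NME1 (-0.74 ± 0.42, SE, adjusted p = 0.181) did not pass.

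No member was called in lsm1-ideg beyond wt, a comparison that shares its wt libraries with that of dcp2-ideg. edgeR called 0 of 84 members, where 0.212% of all features were called (0.187% higher, 0.0255% lower), and DESeq2 called 0. 0 of 84 members had an unadjusted p under 0.05, as did 903 of 11776 features. The median change was 0.02 over the members, 0.09 over the 8 intronic ones and 0.03 over all features. LSR1 was at 0.67 ± 0.33 (SE, adjusted p = 0.669), snR44 at 0.33 ± 0.19 (SE, adjusted p = 0.747) and snR17b_intron at -0.24 ± 0.50 (SE, adjusted p = 0.961). None of the machinery lists held a called gene.

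Within lsm1-ideg, T60 against T0, snR44 was the only member called, and it was higher, where 1.12% of all features were called higher and 0.730% lower (1.85% either way). It had 54.5, 54.4, 54.7 and 52.8 CPM in lsm1-ideg T60, against 34.7, 34.2, 43.2 and 39.2 CPM in lsm1-ideg T0, without overlap. No other member was without overlap here, where 7.14% of all features were higher and 9.03% lower without overlap. The rise was 0.52 ± 0.14 (log2, SE, adjusted p = 0.0498), so close to the threshold that it was lost on leaving out any of 9 single libraries, 7 of them of lsm1-ideg and the others wt T0 replicate 1 and dcp2-ideg T60 replicate 3. wt T60 replicate 3 reached 54.6 CPM of snR44, while the other wt T60 libraries held 35.3 to 36.7 CPM.

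The changes of the 2 degron strains were also compared directly, in a test that shares the dcp2-ideg libraries with the first comparison. Of 84 members 9 were lower and 1 higher in the dcp2-ideg change than in the lsm1-ideg change, where 13.3% and 15.2% of all features were (28.5% either way). The difference was -1.87 ± 0.20 for snR44 (SE, adjusted p = 4.26e-07), -1.88 ± 0.50 for snR17b_intron (SE, adjusted p = 0.00659) and -1.63 ± 0.38 for snR38 (SE, adjusted p = 0.00230), and these 3 kept the call in all 32 alternatives. The intronic snR18 (-1.19 ± 0.34), snR191 (-1.16 ± 0.38) and snR54 (-1.05 ± 0.31) followed (SE). These 3 lost the call with total count scaling, and snR191 also with TMM factors from gene features, without lsm1-ideg T60 replicate 3, without dcp2-ideg T0 replicate 4 and without both dcp2-ideg libraries numbered 4. Outside introns it was called for snR17a_intron (-1.65 ± 0.56), snR190 (-1.35 ± 0.48) and LSR1 (-1.16 ± 0.33, all SE). LSR1, lower by 0.63 ± 0.23 in dcp2-ideg T60 than T0 (SE, adjusted p = 0.0278), had 9.65, 17.2, 21.8 and 17.5 CPM in lsm1-ideg T60, against 9.13, 10.2, 12.7 and 13.7 CPM in lsm1-ideg T0. snR46 was the member with the higher value, at 1.11 ± 0.41 (SE, adjusted p = 0.0458), and it lost the call in 15 of 32 alternatives, 14 of them the removal of 1 library. snR190 lost it in 13 and snR17a_intron in 8, both among others without dcp2-ideg T0 replicate 4, and LSR1 with total count scaling only. Without lsm1-ideg T60 replicate 3 the count was 6 lower and 0 higher, and without dcp2-ideg T0 replicate 1 it was 16 lower and 0 higher.

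Treatment of wt and the degron strains before treatment gave no called member. In wt T60 against T0 edgeR and DESeq2 called 0 members, 1 member had an unadjusted p under 0.05, as did 388 of 11776 features, and edgeR called 0.0% of all features. In wt 1 member was higher and 1 lower at T60 without overlap, where 1.15% and 0.892% of all features were. For dcp2-ideg T0 against wt T0, 0 members were called, where 0.824% of all features were (0.586% higher, 0.238% lower), and 6 members had an unadjusted p under 0.05, as did 1417 of 11776 features. For lsm1-ideg T0 against wt T0, 0 were called, where 0.348% of all features were (0.195% higher, 0.153% lower), and 3 had an unadjusted p under 0.05, as did 834 of 11776 features. DESeq2 called 0 in both.

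The members moved together between libraries of 1 group. Among the 61 members outside introns with a median of at least 100 counts, deviations from the group mean had a median pairwise correlation of 0.559 over the 24 libraries, and among the 8 intronic members it was 0.569. The median deviation of the members in a library correlated at 0.844 with that of SCR1, at 0.851 with that of RPR1 and at 0.0613 with that of TLC1 (n = 24 libraries, which share their depth and scaling with the members). SCR1, the RNA of the signal recognition particle, ranged from 11.7 to 26.0 CPM in dcp2-ideg T60, against 18.1 to 63.4 CPM in dcp2-ideg T0. RPR1 ranged from 6.11 to 7.46 CPM, against 4.58 to 14.6 CPM. The highest SCR1 and RPR1 values were both in dcp2-ideg T0 replicate 4, which also had the largest member deviation, 0.66 (log2). The correlations were not taken without that library, nor were matching values over all features. The part of carried-over RNA in the members' values was not tested.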

How the data were processed

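Polyadenylated RNA of budding yeast was sequenced with a strand-specific dUTP kit, per the labels' protocols. The authors deposited 1 table of raw read counts per feature for 24 libraries and the annotation it was counted on. The submitters' processing notes name STAR, featureCounts and sacCer3; versions and the strand setting are not given in the sources used here. Per the deposited annotation, which names a type for each feature, all snoRNA and snRNA features were taken. A read in an intronic snoRNA is counted in the intron as well, as the counts show.

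Counts were tested with edgeR 4.0.16 (R 4.3.3) by the quasi-likelihood test with TMM factors, filterByExpr and 1 mean per group over all 24 libraries (18 residual degrees of freedom). p-values were adjusted by Benjamini-Hochberg over 11776 features, with 513 not tested, and called under 0.05. The fit was tested on simulated data. A standard error is the log2 change divided by the root of its F statistic. Alternatives were total count scaling, TMM factors from gene features alone, DESeq2 1.42.0 and 2 other filters on low counts. Others were only the groups compared, a replicate block and leaving out each library in turn, also those outside a comparison. Leaving out both dcp2-ideg libraries numbered 4 was a further alternative, chosen after seeing the data. Named are, for each comparison, up to 10 called members per direction, the snRNAs, U3 and intronic members, the 5 highest per base and the 5 most variable; core snoRNP proteins and host genes are given with values. Members and lists were chosen with earlier results of these data known. Sequences were read from RefSeq R64 and compared with blastn 2.17.0 and biopython 1.88.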

Additional observations from a re-analysis of the deposited data

Results flagged for a closer look

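Of 102 groups of 4 libraries, over 16 members and the share of counts, 6 held a library whose gap to the others passed Dixon's 95% limit. Chance gives about 1 in 20, so these 6 are near the share that chance gives, and the groups share libraries. The highest values were snR44 in wt T60 replicate 3 with 54.6 CPM, snR191 in the same library with 9.98 CPM, snR17b_exon in dcp2-ideg T0 replicate 4 with 28 CPM and snR46 in lsm1-ideg T0 replicate 3 with 6.68 CPM. The lowest were snR54 in lsm1-ideg T0 replicate 1 with 11.2 CPM and snR190 in wt T0 replicate 4 with 3.65 CPM.

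The change from T0 to T60 differed between dcp2-ideg and wt, by edgeR's test of the difference itself, for 9 members. The log2 differences were -2.12 for snR17b_intron, -1.54 for snR44, -1.46 for snR17b_exon, -1.34 for snR191, -1.26 for snR38, -1.25 for snR79, -1.09 for snR18, -0.99 for snR55 and -0.98 for snR54. It differed between dcp2-ideg and lsm1-ideg for 10 members. These differences were -1.88 for snR17b_intron, -1.87 for snR44, -1.65 for snR17a_intron, -1.63 for snR38, -1.35 for snR190, -1.19 for snR18, -1.16 for snR191, -1.16 for LSR1, -1.05 for snR54 and 1.11 for snR46. Both tests use the dcp2-ideg libraries.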

How the results depend on the processing

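Leaving out 1 library in turn gave 8 to 16 called members for dcp2-ideg beyond wt, 6 to 16 for dcp2-ideg against lsm1-ideg, 15 to 25 for dcp2-ideg T60 against T0, 0 to 1 for lsm1-ideg T60 against T0, and 0 to 0 in the other comparisons. For dcp2-ideg T60 against T0 the count was 13 with TMM factors from gene features alone (5 higher, 8 lower) and 13 without both dcp2-ideg libraries numbered 4 (4 higher, 9 lower), against 20 as reported. Total count scaling, which moved the median of all features from 0.07 to 0.57, changed which members were called, with 5 higher and 2 lower beyond wt, 6 higher and 3 lower against lsm1-ideg, and 18 higher and 4 lower within dcp2-ideg. The 9 members called beyond wt had a negative change under all 32 alternatives. Turns of sign were sought only among the called members, the snRNAs, U3 and the intronic members. Members outside that set turned sign too, since the median of all members became positive with total count scaling. Within the set, the log2 change beyond wt in dcp2-ideg turned sign with total count scaling for LSR1 (0.0085), snR19 (0.13) and snR39 (0.19). It also did so for snR14 (0.54) and snR19 (0.17) without dcp2-ideg T0 replicate 4, and for snR14 (0.54) without both libraries numbered 4. These values had moved from the reported ones by more than the standard error. Over all single libraries left out snR14 ranged from -0.43 to 0.54 and snR19 from -0.63 to 0.17. snR14 (0.34) and snR7-S (0.13) with total count scaling, and snR7-L (0.20) and snR7-S (0.50) without dcp2-ideg T0 replicate 4, also turned sign, with a move of less than the standard error. Smaller turns, up to 0.17, were seen for snR14 and snR7-S under 6 other alternatives. None of these 6 members had passed the test, and the cause was not tested. DESeq2 called 13 members lower and 0 higher beyond wt. No label says that a replicate number marks a shared culture or day, and the numbers were not taken as pairs. Deviations of same-numbered libraries of different groups correlated over 0.1 in 15 of 60 pairs. Their median correlation was 0.0684, against -0.0227 for libraries of different numbers. For 20 of 24 libraries the mean correlation with libraries of other groups was highest for their own number. This is a hint from the data that numbers may share a source. With the replicate block 11 members were lower and 1 higher beyond wt, 12 lower and 0 higher against lsm1-ideg, and 21 lower and 3 higher within dcp2-ideg. Counts were low for some members, with a median under 10 per library in 3, and U5 and U6 could not be compared at this depth.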
